A study of Homo sapiens with 18 samples.

Results

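The 10 genes described here, all for proteins that the liver secretes into blood, were followed in foregut endoderm made from human embryonic stem cells: APOA1, APOA2, APOB and APOE (apolipoproteins), AFP and ALB (albumin family), TTR (hormone and retinol carrier), SERPINA1 (protease inhibitor), FGB (fibrinogen chain) and AGT (precursor of the angiotensin hormones). They were chosen by symbol, and all 10 were found among 35025 genes of the count table. RNA-seq had been run on 18 libraries in 6 groups of 3, all from wild-type H1, an established embryonic stem cell line. Where used, retinoic acid (RA, 2 µM) was present over the 24 h that ended on day 6. A mix of CHIR99021 (2 µM), a GSK3 inhibitor that switches on Wnt signalling, and BMP4 (50 ng/mL), standing in for signals of a respiratory fate, was present over the 72 h that ended on day 9. The groups were RA followed by CHIR99021 and BMP4 (day 9), RA alone (day 9), CHIR99021 and BMP4 alone (day 9), untreated (day 9), RA (day 6) and untreated (day 6).

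Apolipoproteins coat the particles that carry lipids in blood, and APOB is built into such a particle inside the cell with the help of a lipid transfer protein. AFP and ALB lie side by side in the genome, AFP being the main plasma protein of the fetus and ALB that of the adult. Many of these genes are switched on early in liver progenitors, but visceral endoderm, the yolk sac and intestinal cells also use several of them, so that they mark a secretory endoderm program rather than a single cell type.

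The libraries held 5792337 to 25371661 counts, so 1 count was worth less than 1 CPM (a count scaled to the size of its library, with sizes adjusted by trimmed mean of M-values) in each of them. The liver's other defining genes were mostly missing: CYP3A7, a fetal liver cytochrome, had 0 counts in all 6 groups, and TAT and TDO2 averaged at most 2.47 and 0.270 CPM. Only CPS1, a urea cycle enzyme, averaged over 39 CPM in all groups, and the sums of this list of 8 genes are given beside the comparisons. Targets of the treatments were read as a check. HOXB1, a direct RA target, averaged 140 ± 32.9 CPM (SD) after RA at day 6 and had 0 counts in untreated libraries of day 6. AXIN2, a Wnt target, averaged 58.8 ± 3.82 CPM with CHIR99021 and BMP4, against 17.995 ± 0.813 CPM without. ID1, a BMP target, did not pass the test in that comparison (log2 fold change 0.21, adjusted p = 0.411). It averaged 99.2 ± 11.6 CPM with CHIR99021 and BMP4 after RA and 352 ± 39.4 CPM after RA alone, a difference of -1.83 (adjusted p = 1.71e-06). The foregut endoderm list of 9 genes had no gene at 0 in any group, and summed to 1568 to 1998 CPM in the 3 groups with RA and 859 to 1203 CPM in the 3 groups without RA.

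The untreated libraries stood apart in one respect. Between the 12 treated libraries and 4 of the untreated ones, 57 genes had every library of one side at least 10-fold above every library of the other, and 53 of them (93.0%) were pseudogenes, which made up 3.64% of all genes at 2 CPM or more. None of the 10 genes was among them. Of the CPM in these 57 genes, the set that was higher in treated libraries held 93.9% to 95.6% in treated libraries by that choice, and 0.322% to 0.576% in untreated libraries of day 9. In untreated libraries of day 6 it held 8.70%, 0.370% and 17.1%, so replicates 1 and 3 were mixed. RA at day 6, RA at day 9, and CHIR99021 and BMP4 without RA each set treated libraries against untreated ones, so there this split and the treatment cannot be told apart. The RA effect with CHIR99021 and BMP4 set against that without also includes untreated libraries of day 9, so the same holds there. Day 9 against day 6 without RA and the difference between the RA effects of both days include untreated libraries of both days. The split enters there in part, through the mixed replicates 1 and 3 of day 6. RA before CHIR99021 and BMP4, CHIR99021 and BMP4 after RA, and day 9 against day 6 after RA compared treated libraries with each other.

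On the GRCh38 build, in the coordinates of the count table, APOA1 lies on chromosome 11 (116835751 to 116837622), APOA2 on chromosome 1 (161222292 to 161223628), APOB on chromosome 2 (21001429 to 21044073) and APOE on chromosome 19 (44905796 to 44909393). Chromosome 4 holds ALB (73404287 to 73421482), AFP (73436221 to 73456174) and FGB (154563011 to 154572805). TTR lies on chromosome 18 (31591877 to 31598821), SERPINA1 on chromosome 14 (94376747 to 94388602) and AGT on chromosome 1 (230702523 to 230745583). All are protein coding, and the values are per gene, not per transcript.

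Promoter sequences were read because the liver's regulators bind close to the start in several of these genes. In the RefSeq table (GRCh38.p14), 7 of the 10 genes matched, with 11 windows, while APOA1, APOB and TTR did not. The 250 bases before each start were searched on both strands for exact letters of sites for HNF4 (CAAAGTCCA), FOXA (TGTTTAC or TATTTAC), C/EBP (TTGCNNAA) and RA receptor motifs (AGGTCA or AGTTCA), and for TATAAA. The 5 windows that follow hold every match except that in AGT and those in a second, overlapping FGB window, with matched letters in capitals. They are given on the gene's strand, ending at the base before the start. Sites for other liver regulators, such as HNF1, were not searched for. Letters in lower case may still hold such sites. Examples are gttaataat in the ALB window and gttaattat in the AFP window. How many of all windows hold these letters was not counted.
ALB chr4:73404037-73404286: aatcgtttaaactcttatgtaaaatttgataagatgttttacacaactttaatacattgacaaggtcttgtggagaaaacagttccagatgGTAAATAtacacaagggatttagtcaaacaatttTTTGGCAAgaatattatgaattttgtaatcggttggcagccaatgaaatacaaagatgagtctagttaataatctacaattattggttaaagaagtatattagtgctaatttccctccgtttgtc
AFP chr4:73435971-73436220: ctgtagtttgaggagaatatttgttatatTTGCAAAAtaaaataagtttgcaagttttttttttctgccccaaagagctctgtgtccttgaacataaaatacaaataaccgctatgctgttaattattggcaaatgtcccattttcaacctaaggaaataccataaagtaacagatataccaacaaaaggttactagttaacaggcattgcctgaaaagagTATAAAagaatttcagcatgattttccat
FGB chr4:154562761-154563010: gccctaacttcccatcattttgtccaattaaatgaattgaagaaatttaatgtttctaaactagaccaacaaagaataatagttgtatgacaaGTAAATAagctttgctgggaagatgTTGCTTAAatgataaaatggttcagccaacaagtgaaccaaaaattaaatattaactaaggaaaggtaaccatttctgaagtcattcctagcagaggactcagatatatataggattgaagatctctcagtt
APOA2 chr1:161223629-161223878: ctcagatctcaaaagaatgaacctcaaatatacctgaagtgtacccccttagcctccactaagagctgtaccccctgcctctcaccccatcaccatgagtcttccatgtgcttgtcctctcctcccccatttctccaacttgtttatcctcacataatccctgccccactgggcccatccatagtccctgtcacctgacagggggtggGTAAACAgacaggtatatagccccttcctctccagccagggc
SERPINA1 chr14:94388603-94388852: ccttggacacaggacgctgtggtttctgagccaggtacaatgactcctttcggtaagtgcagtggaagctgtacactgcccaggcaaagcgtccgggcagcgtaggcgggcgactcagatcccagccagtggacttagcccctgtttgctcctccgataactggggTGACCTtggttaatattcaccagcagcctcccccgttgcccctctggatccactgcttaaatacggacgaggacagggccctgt

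ALB and FGB held the FOXA letters TATTTAC, found in 2.40% of all 35116 windows, from base -159 to -153 in ALB and from -157 to -151 in FGB. ALB, AFP and FGB each held C/EBP letters (9.05% of windows). APOA2 held the other FOXA letters (2.98% of windows) and SERPINA1, in the window at the start used by the count table, the RA receptor motif AGGTCA (12.1% of windows). Neither the HNF4 letters (0.325% of windows) nor AGTTCA (8.80% of windows), nor a pair of receptor motifs in the same direction with 1, 2 or 5 bases between them (0.0399%, 0.0057% and 0.0142% of windows) were found in the 11 windows, which says only that these letters are not there. TATAAA (10.7% of windows) was found in AFP and AGT, and no match overlapped another. The 2 genes with TATTTAC differed in level: FGB reached 21.5 CPM and ALB stayed under 1 CPM.

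In TPM, a unit that divides by gene length and so allows genes to be compared, APOE was the most abundant of the 10 in every group, at 182 to 858 TPM by group mean. It made up 87.9% to 92.3% of the summed TPM of the 10 genes in untreated libraries of day 6 and 40.2% to 43.0% in RA libraries of day 6. Without APOE, the others summed to 217 TPM after RA then CHIR99021 and BMP4, 439 TPM after RA at day 9, 200.4 TPM with CHIR99021 and BMP4, 29.0 TPM in untreated libraries of day 9, 1215 TPM after RA at day 6 and 84.6 TPM in untreated libraries of day 6. APOA1, APOA2 and TTR were the bulk of the RA sum at day 6, at 574, 357 and 243 TPM. SERPINA1, FGB, AFP, APOB, AGT and ALB averaged at most 36.3 TPM in all 6 groups. In bulk RNA, fewer cells that make a transcript and less transcript per cell cannot be told apart.

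**Figure D1:**
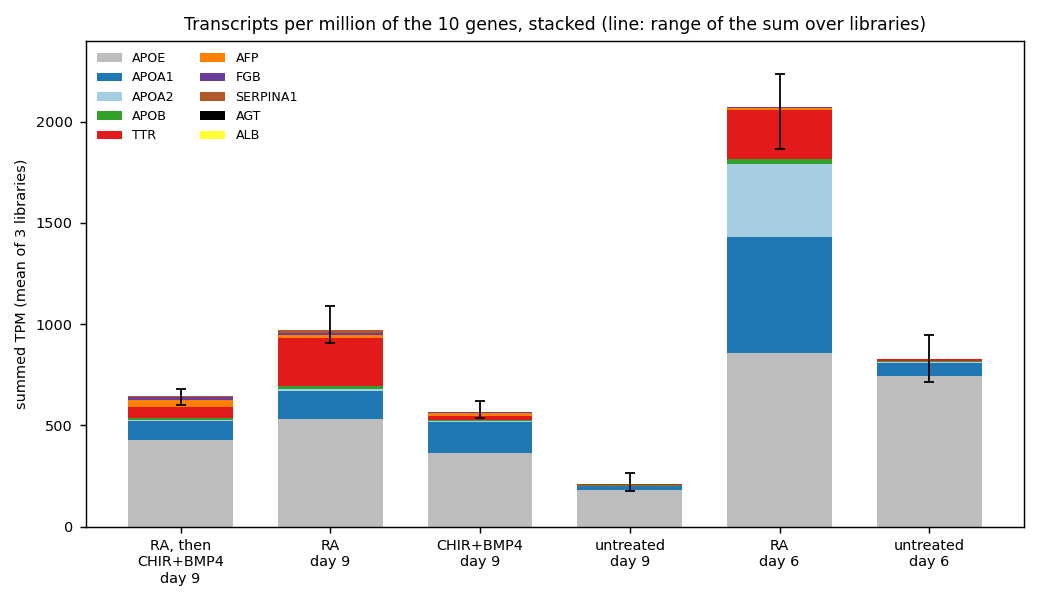
Summed TPM of the 10 genes in each group, stacked by gene (mean of 3 libraries), with black lines for the lowest and highest sum over libraries. APOE (grey) is the largest layer in all 6 groups, and RA at day 6 has the tallest bar, at 2073 TPM, against 826 TPM in untreated libraries of day 6.

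Within 1 day of RA, 8 of the 9 tested genes rose at day 6 and none fell, and those 8 had all RA libraries above all untreated ones. ALB did not pass the filter on low counts and was not tested. SERPINA1 and AGT reached the filter's level, near 1.11 CPM, only in libraries with RA. Their part in counts of genes higher after RA was therefore partly fixed beforehand. Of all 15531 tested genes, 25.3% were called higher and 23.4% lower (adjusted p below 0.05), 29.6% had RA libraries all above the untreated ones, and the 9 genes' median log2 fold change was 3.68, against 0.00 over all tested genes. Fold changes, their SE and adjusted p-values here and below come from edgeR's quasi-likelihood test with Benjamini-Hochberg adjustment over all tested genes. The labels do not say whether replicates were separate cultures, so these p-values measure the spread between libraries, which may be technical.

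APOA2, the second protein of high-density lipoprotein (HDL), had 188, 231 and 206 CPM in RA libraries of day 6, against 3.89, 3.82 and 3.76 CPM in untreated ones. That was the widest gap among the genes with more than 3 counts in both groups, 5.77 ± 0.16 on the log2 scale (SE; adjusted p = 4.01e-18). APOA1, the main protein of HDL, had 136, 157 and 149.5 CPM in RA libraries, against 28.8, 17.7 and 11.7 CPM in untreated libraries. It rose by 2.95 ± 0.28 (adjusted p = 1.28e-06), with all RA libraries above all untreated ones. APOB, the structural protein of low-density lipoprotein, had 79.7, 90.7 and 95.1 CPM in RA libraries, against 17.96, 27.7 and 26.7 CPM in untreated libraries, an increase of 1.87 ± 0.26 (adjusted p = 4.02e-05). APOE, a ligand for lipoprotein receptors, behaved differently. It had 491, 574 and 576 CPM in RA libraries, against 608, 485 and 534 CPM in untreated libraries, so the groups overlapped, with a difference of 0.01 ± 0.12 (adjusted p = 0.957).

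TTR, the carrier of thyroid hormone and of the retinol-binding protein, had 131, 172 and 133 CPM in RA libraries of day 6, against 4.16, 3.82 and 5.90 CPM in untreated libraries. It rose by 4.94 ± 0.42 on the log2 scale (adjusted p = 5.23e-07). AFP had 10.7, 6.78 and 3.68 CPM in RA libraries, against 0.134, 0.318 and 0.215 CPM in untreated libraries, where its 3 values came from 5 counts in all. Its rise of 4.98 ± 1.21 passed the test (adjusted p = 0.00417), but not once both mixed untreated libraries were left out (4.44, adjusted p = 0.138), a setting added after the data were seen. ALB had 0.883, 0.899 and 0.849 CPM in RA libraries, against 0.402, 0.159 and 0.215 CPM in untreated ones, from 25 and 6 counts in all. Without the filter its difference was 1.71 (adjusted p = 0.0374), and by DESeq2 1.75 (adjusted p = 0.0822).

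The remaining genes were nearly silent in untreated libraries of day 6. FGB, a chain of the clotting protein fibrinogen, had 5.74, 5.23 and 5.10 CPM in RA libraries, against 0, 0.318 and 0 CPM in untreated libraries, from 152 and 2 counts. The ratio was 61.8 with a 95% counting interval of 16.8 to 515, and the gene passed the test (adjusted p = 7.45e-05). AGT had 1.10, 2.53 and 1.56 CPM in RA libraries, against 0.134, 0 and 0.215 CPM in untreated libraries, a ratio of 14.1 (4.56 to 70.6; adjusted p = 0.000256). SERPINA1, the inhibitor of neutrophil elastase, had 1.21, 1.23 and 1.42 CPM in RA libraries, against 0, 0.477 and 0 CPM in untreated libraries. Its ratio was 9.76 (3.08 to 49.5; adjusted p = 0.0222), and the call was lost without untreated replicate 1 or 3 (adjusted p = 0.0829 to 0.105) and without both (log2 difference 1.38). The SERPINA1 call was also lost without the filter (adjusted p = 0.0639) and by limma on log2(TPM + 1) (adjusted p = 0.0626). Counting intervals cover counting error only.

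Marker lists of other cell types also differed at day 6. The yolk sac and visceral endoderm list of 10 genes, which holds AFP and TTR, summed to 849 to 963 CPM in RA libraries of day 6, against 275 to 363 CPM in untreated ones. The pancreas list of 9 genes summed to 104 to 138 CPM, against 7.30 to 15.2 CPM in untreated libraries, with INS and GCG at 0 in both. The macrophage list, whose C1QA and C1QB were at 0 in all groups, summed to 1.43 to 3.82 CPM, against 0.637 to 1.34 CPM in untreated libraries. The mesenchyme list summed to 469 to 657 CPM, against 796 to 877 CPM in untreated libraries, and the intestine list to 22.4 to 30.8 CPM, against 25.9 to 35.2 CPM, with overlap. The cardiac list summed to 34.7 to 37.0 CPM, against 46.7 to 64.2 CPM in untreated libraries. The liver list summed to 68.2 to 71.9 CPM, against 42.5 to 48.4 CPM in untreated libraries, and the foregut endoderm list to 1613 to 1752 CPM, against 954 to 1084 CPM. The part of these lists in the result was not tested.

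**Figure D2:**
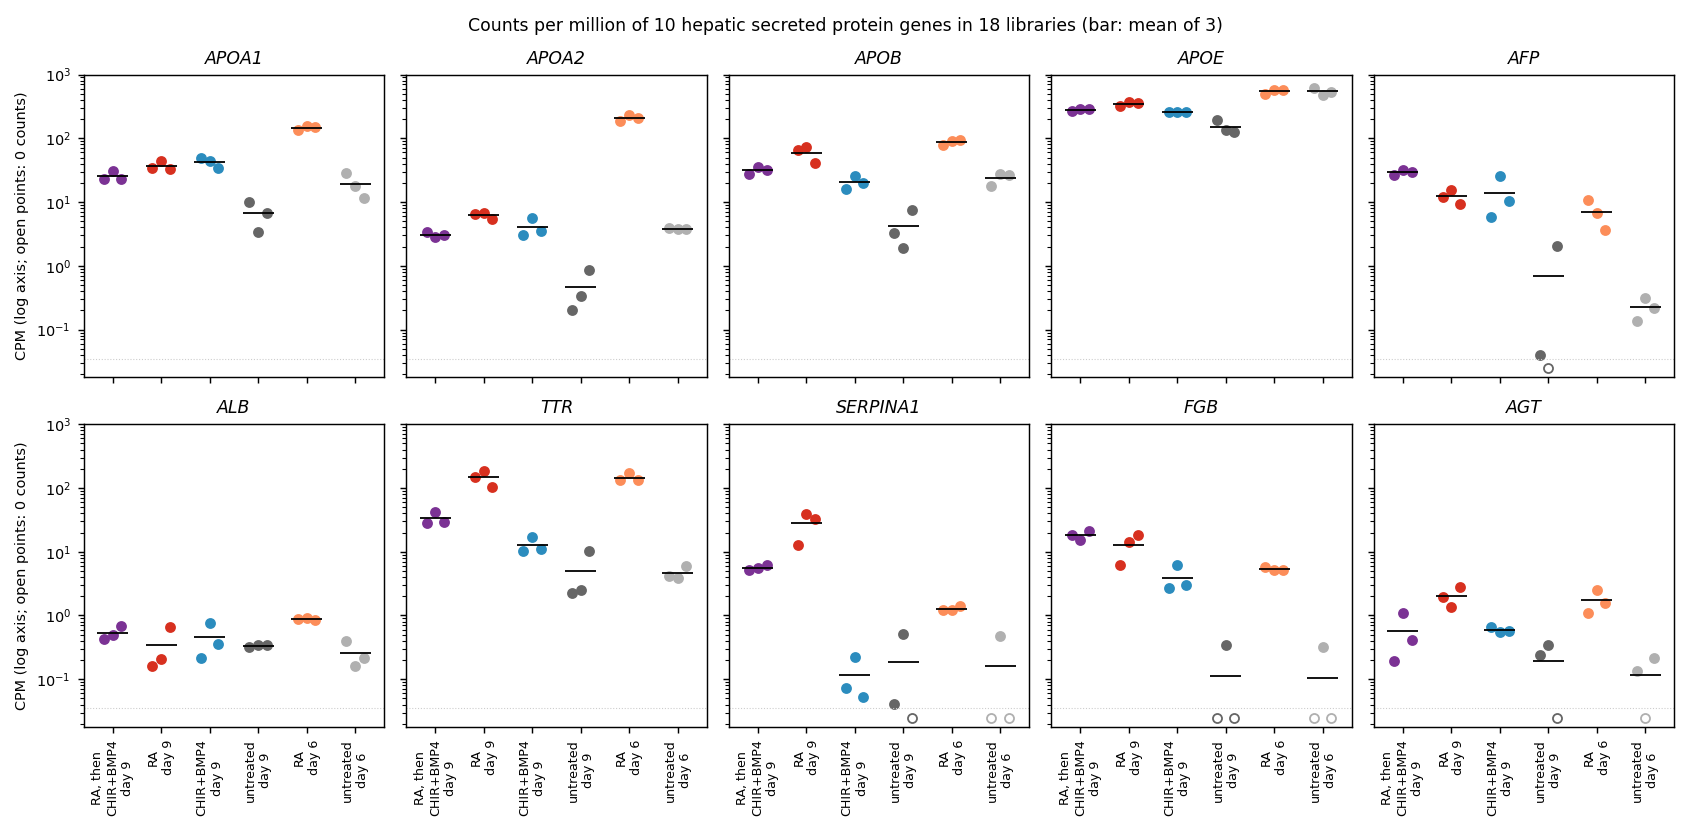
CPM of each of the 10 genes in all 18 libraries on a log axis, with 1 point per library, a bar at the group mean and open points for libraries with 0 counts. APOE lies above 100 CPM in all groups and ALB below 1 CPM, while SERPINA1 and FGB have 0 counts in several untreated libraries.

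At day 9, 3 days after RA had been removed, all 9 tested genes were higher in RA libraries than in untreated libraries, with no overlap for any of them. SERPINA1 and AGT, among these 9, passed the filter only through libraries with RA. Of all tested genes 32.5% were called higher and 32.5% lower, and 32.8% had RA libraries all above the untreated ones. The median log2 fold change of the 9 genes was 4.17, against -0.02 over all tested genes. The 2 RA comparisons use different libraries, but RA at day 9 shares its untreated libraries with the comparison of CHIR99021 and BMP4 without RA and with that of day 9 against day 6 without RA.

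SERPINA1 had 12.7, 38.5 and 32.4 CPM in RA libraries of day 9, against 0.0402, 0.511 and 0 CPM in untreated libraries. This was a log2 difference of 7.85 ± 0.61 (adjusted p = 6.22e-09), although RA replicate 1 lay well under the other two. FGB had 6.10, 14.1 and 18.4 CPM in RA libraries, against 0, 0.340 and 0 CPM in untreated libraries, a ratio of 249.7 with a counting interval of 68.6 to 2070 (adjusted p = 2.33e-07). TTR had 151, 182 and 105 CPM in RA libraries, against 2.25, 2.55 and 10.4 CPM in untreated libraries. It was 5.22 ± 0.43 higher on the log2 scale (adjusted p = 1.64e-07), and untreated replicate 3 was the highest of its group for TTR, AFP, APOB and APOA2 alike. AFP had 11.9, 15.5 and 9.44 CPM in RA libraries, against 0.0402, 0 and 2.07 CPM in untreated libraries (4.997 ± 0.93; adjusted p = 0.000372).

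Among the apolipoproteins, APOB had 64.6, 72.4 and 41.0 CPM in RA libraries of day 9, against 3.25, 1.87 and 7.60 CPM in untreated libraries, a log2 difference of 3.94 ± 0.34 (adjusted p = 1.47e-07). APOA2 had 6.42, 6.79 and 5.33 CPM in RA libraries, against 0.201, 0.340 and 0.864 CPM in untreated libraries. The difference was again large, 4.17 ± 0.34 (adjusted p = 3.11e-10), but at a level far under that of day 6. APOA1 had 34.0, 43.6 and 32.4 CPM in RA libraries, against 9.88, 3.40 and 6.74 CPM in untreated libraries, and was 2.25 ± 0.33 higher (adjusted p = 3.82e-05). APOE, unlike at day 6, now differed: it had 325, 372 and 357 CPM in RA libraries, against 197, 133 and 126 CPM in untreated libraries, 1.19 ± 0.13 higher (adjusted p = 1.55e-07). AGT had 1.93, 1.36 and 2.78 CPM in RA libraries, against 0.241, 0.340 and 0 CPM in untreated libraries (3.15 ± 0.60; adjusted p = 7.59e-05). ALB had 0.160, 0.209 and 0.667 CPM in RA libraries, against 0.321, 0.340 and 0.346 CPM in untreated libraries, so the groups overlapped.

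Marker lists also differed at day 9. The intestine list of 10 genes, among them CDX2 and VIL1, summed to 99.1 to 219 CPM in RA libraries, against 3.74 to 8.64 CPM in untreated libraries, with FABP2, SI and ALPI at 0 in both. The pancreas list summed to 135 to 148 CPM after RA, against 0 to 0.522 CPM in untreated libraries. The cardiac list summed to 1222 to 1777 CPM after RA, against 63.0 to 71.1 CPM, and the mesenchyme list to 2364 to 3579 CPM, against 771 to 1239 CPM in untreated libraries. The yolk sac and visceral endoderm list summed to 347 to 440 CPM after RA, against 127 to 147 CPM in untreated libraries, and the macrophage list to 8.67 to 13.3 CPM, against 0.681 to 2.45 CPM. The liver list summed to 40.9 to 52.6 CPM after RA, against 58.2 to 64.1 CPM in untreated libraries, and the foregut endoderm list to 1787 to 1998 CPM, against 859 to 1046 CPM. Their part in the result was not tested.

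The test of the difference between both RA effects (day 9 minus day 6) passed for APOB and APOE, whose effects were larger at day 9 by 2.07 ± 0.44 (adjusted p = 0.00143) and 1.18 ± 0.18 (adjusted p = 1.98e-05). Of all tested genes 24.9% were called in that direction. For APOA2 the effect was smaller at day 9, by -1.60 ± 0.58 (adjusted p = 0.0248; 26.0% of all tested genes called in that direction), and the call was lost without untreated day 9 replicate 3 (-1.08, adjusted p = 0.197). Without both mixed untreated libraries of day 6 the APOA2 difference was -1.57 and was not called either. SERPINA1 had the largest estimate, 4.67 ± 2.28, which did not pass (adjusted p = 0.0982) but did without RA day 9 replicate 1 (5.001, adjusted p = 0.00966) and by DESeq2 (4.66, adjusted p = 0.000602). The other 5 tested genes did not pass.

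The genes also differed between day 9 and day 6 within each arm. In the RA arm, time and the 3 days since RA was removed cannot be told apart. Without RA, APOA1, APOA2, APOB and APOE fell at day 9 relative to day 6 (4 of 9 tested genes, with 22.9% of all tested genes called lower and 24.0% higher), and none rose. APOE averaged 152 ± 39.0 CPM at day 9 and 543 ± 62.0 CPM at day 6 (SD), a log2 difference of -1.82 ± 0.13 (adjusted p = 1.89e-09). APOA2 fell by 3.48 ± 0.38 (adjusted p = 1.19e-07), APOB by 2.65 ± 0.37 (adjusted p = 4.42e-05) and APOA1 by 1.31 ± 0.35 (adjusted p = 0.00822). The APOA1 call was lost without both mixed untreated libraries of day 6 (-1.20, adjusted p = 0.0525). The yolk sac and visceral endoderm list summed to 127 to 147 CPM at day 9 and 275 to 363 CPM at day 6, the intestine list to 3.74 to 8.64 CPM and 25.9 to 35.2 CPM, and the astrocyte and choroid plexus list to 258 to 368 CPM and 530 to 588 CPM. Their part in the result was not tested.

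After RA, SERPINA1 and FGB rose at day 9 relative to day 6 (28.5% of all tested genes were called higher), while APOA1, APOA2 and APOE fell (30.3% called lower). SERPINA1 averaged 27.9 ± 13.5 CPM at day 9 and 1.29 ± 0.113 CPM at day 6 (SD), a log2 difference of 4.46 ± 0.42 (adjusted p = 8.31e-08). FGB was 1.30 ± 0.36 higher (adjusted p = 0.00599), a call lost by limma on log2(TPM + 0.1) (1.06, adjusted p = 0.111). APOA2 averaged 6.18 ± 0.756 CPM at day 9 and 208 ± 21.7 CPM at day 6, a difference of -5.08 ± 0.15 (adjusted p = 6.58e-18). APOA1 fell by 2.00 ± 0.26 (adjusted p = 1.54e-05) and APOE by 0.64 ± 0.12 (adjusted p = 0.000213). TTR averaged 146 ± 39.0 CPM at day 9 and 145 ± 23.2 CPM at day 6, a difference of 0.00 ± 0.29 (adjusted p = 0.997). APOB, at -0.58 ± 0.24, missed the threshold (adjusted p = 0.0521), and AFP and AGT did not pass. The cardiac list summed to 1222 to 1777 CPM at day 9 after RA, against 34.7 to 37.0 CPM at day 6, and its part in the result was not tested.

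With CHIR99021 and BMP4 in both arms, 4 of the 9 tested genes differed after RA at day 9. SERPINA1, FGB and TTR were higher after RA (21.2% of all tested genes were called higher) and APOA1 was lower (22.1% called lower). SERPINA1 had 5.21, 5.52 and 6.202 CPM after RA then CHIR99021 and BMP4, against 0.0724, 0.222 and 0.0518 CPM with CHIR99021 and BMP4 alone. The log2 difference was 5.71 ± 0.70 (adjusted p = 4.34e-06), the widest of the 9 genes. SERPINA1 passed the filter only through libraries with RA, so its call as higher was partly fixed beforehand. FGB had 18.5, 15.3 and 21.5 CPM after RA, against 2.68, 6.10 and 2.95 CPM without RA, 2.31 ± 0.35 higher (adjusted p = 6.01e-05). TTR had 27.8, 42.6 and 29.5 CPM after RA, against 10.2, 17.0 and 11.1 CPM without RA, 1.42 ± 0.36 higher (adjusted p = 0.00585).

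The lipoprotein genes stood close together in this comparison. APOA1 had 22.9, 31.03 and 22.9 CPM after RA then CHIR99021 and BMP4, against 48.3, 44.6 and 34.3 CPM with CHIR99021 and BMP4 alone. Its log2 difference of -0.73 ± 0.27 passed narrowly (adjusted p = 0.0436), and was lost in 11 of 18 fits with 1 library left out, most of all without replicate 1 of RA then CHIR99021 and BMP4 (adjusted p = 0.155), and was also lost without the filter and by DESeq2. APOB had 27.8, 35.7 and 32.4 CPM after RA, against 16.2, 25.6 and 19.6 CPM without RA, and its difference of 0.65 ± 0.26 missed the threshold (adjusted p = 0.0603). APOA2 had 3.44, 2.81 and 3.03 CPM after RA, against 3.04, 5.65 and 3.52 CPM without RA (adjusted p = 0.287). APOE had 268, 292 and 287 CPM after RA, against 255, 258 and 258 CPM without RA; the groups did not overlap, but the difference of 0.14 ± 0.12 did not pass (adjusted p = 0.403).

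AFP had 26.9, 31.4 and 29.4 CPM after RA then CHIR99021 and BMP4, the highest of any group, against 5.93, 25.38 and 10.4 CPM with CHIR99021 and BMP4 alone. The spread of the group without RA was wide, and the difference of 1.14 ± 0.47 missed the threshold (adjusted p = 0.0688). It passed without replicate 2 of CHIR99021 and BMP4 (1.81, adjusted p = 0.00473). AGT had 0.191, 1.10 and 0.413 CPM after RA, against 0.651, 0.554 and 0.570 CPM without RA, and ALB had 0.430, 0.502 and 0.689 CPM after RA, against 0.217, 0.776 and 0.363 CPM without RA. Both pairs overlapped. The intestine list summed to 22.6 to 27.0 CPM after RA, against 6.32 to 7.53 CPM without, and the cardiac list to 10.7 to 11.8 CPM, against 45.4 to 59.8 CPM; their part in these results was not tested.

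**Figure D3:**
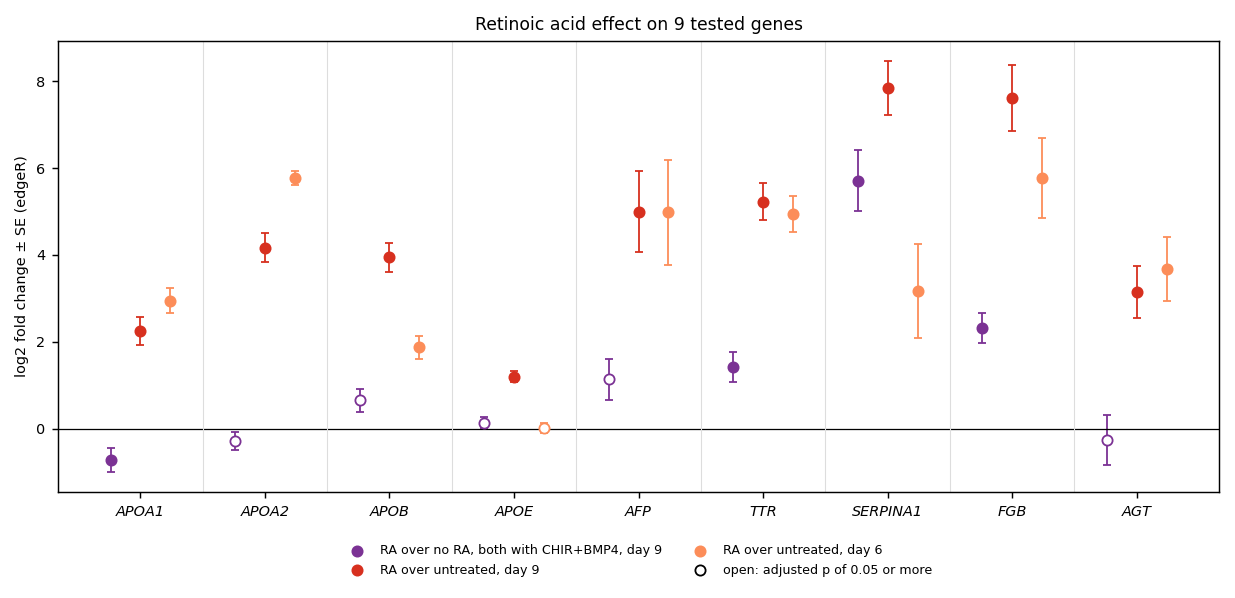
Log2 fold change ± SE (edgeR) of RA libraries over libraries without RA for the 9 tested genes, with CHIR99021 and BMP4 in both arms (purple), at day 9 (red) and at day 6 (orange); open points did not pass. For 8 of the 9 genes the purple point lies below the red one by more than 1 on the log2 scale with a called difference, and SERPINA1 lies at 5.71 and 7.85.

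CHIR99021 and BMP4 without RA raised 7 of the 9 tested genes at day 9, all but SERPINA1 and AGT, and lowered none (21.0% of all tested genes were called higher and 21.8% lower). FGB averaged 3.91 ± 1.90 CPM with CHIR99021 and BMP4 and 0.113 ± 0.197 CPM in untreated libraries (SD), a ratio of 64.6 with a counting interval of 17.6 to 538 (adjusted p = 8.92e-05). AFP averaged 13.9 ± 10.2 CPM with CHIR99021 and BMP4 and 0.705 ± 1.19 CPM in untreated libraries, a log2 difference of 5.10 ± 0.90 (adjusted p = 0.000485). APOA2 was 3.50 ± 0.35 higher (adjusted p = 2.91e-08), APOA1 2.44 ± 0.32 (adjusted p = 2.99e-05) and APOB 2.39 ± 0.36 (adjusted p = 9.32e-05). APOA1 averaged 42.4 ± 7.24 CPM with CHIR99021 and BMP4 and 6.68 ± 3.24 CPM in untreated libraries. APOE rose by 0.74 ± 0.13 (adjusted p = 0.000106). TTR rose by 1.66 ± 0.50 (adjusted p = 0.0162), a call lost without untreated replicate 1 (0.94, adjusted p = 0.206). SERPINA1 had 4 counts in each group, and AGT did not pass (1.40 ± 0.69, adjusted p = 0.106). The mesenchyme list summed to 1109 to 1372 CPM with CHIR99021 and BMP4, against 771 to 1239 CPM in untreated libraries, and overlapped. The liver list summed to 92.4 to 104 CPM, against 58.2 to 64.1 CPM, and the pluripotent list to 1415 to 1582 CPM, against 2098 to 2394 CPM. Their part in the result was not tested.

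After RA, 6 of the 9 genes fell with CHIR99021 and BMP4 and 1 rose, where 32.3% of all tested genes were called lower and 32.1% higher. Of the 6, APOA2, APOB, APOE and TTR were called higher without RA, and SERPINA1 and AGT were not called there. SERPINA1 averaged 5.65 ± 0.506 CPM with CHIR99021 and BMP4 after RA and 27.9 ± 13.5 CPM after RA alone (SD), a log2 difference of -2.34 ± 0.33 (adjusted p = 9.40e-06). TTR averaged 33.3 ± 8.09 CPM with them and 146 ± 39.0 CPM after RA alone, a difference of -2.14 ± 0.31 (adjusted p = 4.59e-05). AGT fell by 2.01 ± 0.51 (adjusted p = 0.00137), APOA2 by 0.96 ± 0.21 (adjusted p = 0.000408) and APOB by 0.90 ± 0.25 (adjusted p = 0.00608). AGT averaged 0.570 CPM with CHIR99021 and BMP4 after RA. It passed the filter through RA libraries without them, so its fall was partly fixed beforehand. APOE fell by 0.32 ± 0.12 (adjusted p = 0.0323), a call lost without replicate 1 or 3 of RA then CHIR99021 and BMP4 or replicate 2 or 3 of RA alone (adjusted p up to 0.105). The APOE call was also lost with upper quartile factors (adjusted p = 0.102), without the filter (0.116) and by limma on either TPM scale (0.0613), and the APOB call by limma on log2(TPM + 0.1) (0.0561). AFP had 29.2 ± 2.28 CPM with CHIR99021 and BMP4 after RA and 12.3 ± 3.02 CPM after RA alone. Its rise of 1.24 ± 0.49 passed narrowly (adjusted p = 0.0411), was lost in 10 of 18 fits with 1 library left out, among them each of the 6 libraries compared (adjusted p up to 0.127), and was lost by DESeq2 (adjusted p = 0.255). APOA1 (-0.53 ± 0.28, adjusted p = 0.112) and FGB (0.47 ± 0.32, adjusted p = 0.208) did not pass. The mesenchyme list summed to 338 to 381 CPM with CHIR99021 and BMP4 after RA, against 2364 to 3579 CPM after RA alone, and the pancreas list to 4.62 to 5.79 CPM, against 135 to 148 CPM. The liver list summed to 51.4 to 55.1 CPM, against 40.9 to 52.6 CPM, and overlapped. Their part in the result was not tested.

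**Figure D4:**
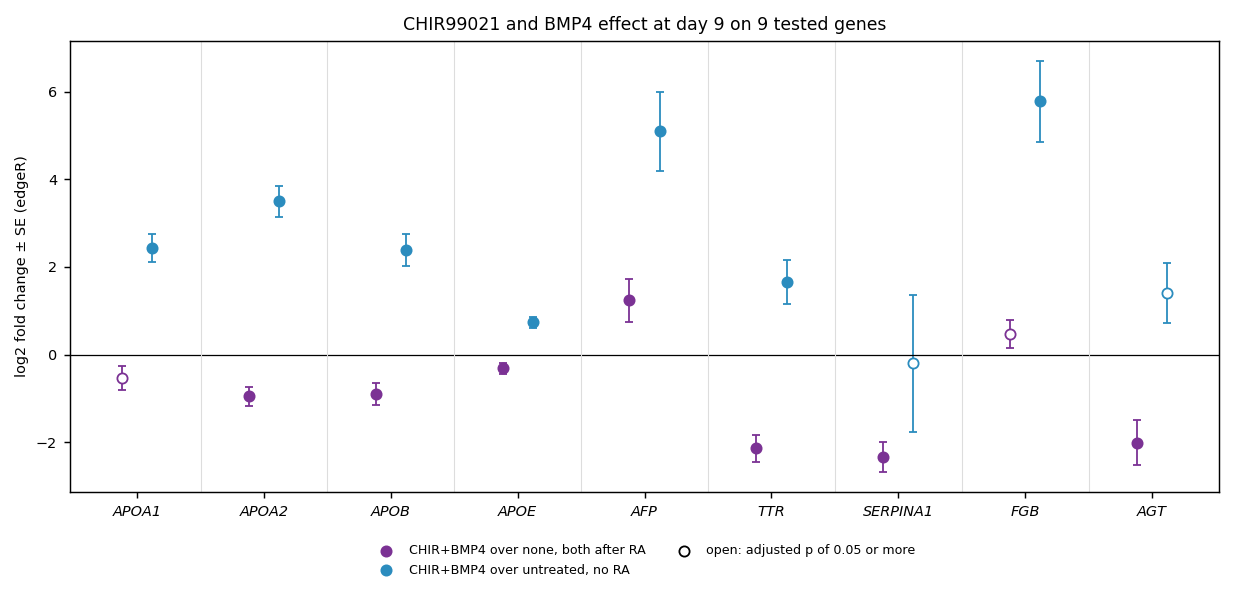
Log2 fold change ± SE (edgeR) of CHIR99021 and BMP4 at day 9 for the 9 tested genes, after RA (purple) and without RA (blue); open points did not pass. APOA2, APOB, APOE and TTR are called higher without RA and lower after RA, and AFP is called higher in both.

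The interaction, which sets the RA effect with CHIR99021 and BMP4 against that without, was negative and called for 8 of the 9 tested genes (27.9% of all tested genes were called in that direction and 25.5% in the other). It ran from -1.05 ± 0.18 for APOE (adjusted p = 6.15e-05) to -5.31 ± 1.05 for FGB (adjusted p = 0.000488). SERPINA1 alone did not pass, at -2.14 ± 1.84 (adjusted p = 0.344), and both groups without RA held 4 counts of it. It passed by limma on log2(TPM + 1), at -1.82 (adjusted p = 0.000969). All 8 values rest in part on the low untreated libraries of day 9, where AFP had 13 counts, FGB 2 and AGT 8 in all. AGT also passed the filter only through libraries with RA, so its value was partly fixed beforehand. The pseudogene split enters through these libraries too, so it and the interaction cannot be told apart. AFP, at -3.86 ± 1.13 (adjusted p = 0.0112), lost its call without untreated replicate 1 (-2.42, adjusted p = 0.114).

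The genome neighbours of the 10 genes were mostly silent. Of 15 genes in the same clusters, 4 passed the filter: APOC1 beside APOE, FGA and FGG beside FGB, and SERPINA5 near SERPINA1. APOC3, APOA4 and APOA5, which share a cluster with APOA1, stayed at 0.222 CPM or less in each library, where APOA1 reached 157 CPM. AFM, the albumin family gene beside AFP, reached at most 0.0724 CPM, and GC, the vitamin D carrier of that family, 1.06 CPM in an RA library of day 6. All 4 tested neighbours were called higher after RA at day 6, at day 9 and before CHIR99021 and BMP4. Of all tested genes, 25.3%, 32.5% and 21.2% were called higher in these comparisons. FGA, the partner chain of FGB, had 16.0, 15.3 and 12.9 CPM in RA libraries of day 6, against 3.35, 2.39 and 2.04 CPM in untreated libraries (2.52 ± 0.33; adjusted p = 3.70e-06). So FGA was detected in untreated libraries of day 6 where FGB had 2 counts. FGG, the third chain, stayed under 2 CPM in all libraries and passed the filter only through libraries with RA, so its calls were partly fixed beforehand. SERPINA5, a plasma inhibitor of protein C, had 14.9, 36.9 and 22.8 CPM in RA libraries of day 9, against 0.563, 0.681 and 0.864 CPM in untreated libraries (5.28 ± 0.43; adjusted p = 8.80e-09).

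Beyond these clusters, 18 of 36 other plasma protein genes of the liver passed the filter. RA at day 6 raised 10 and lowered 3 of them, with a median log2 fold change of 1.10, against 0.00 over all tested genes, of which 25.3% were called higher and 23.4% lower. SERPINF2, the inhibitor of plasmin, averaged 87.6 ± 13.5 CPM after RA and 0.676 ± 0.242 CPM in untreated libraries (SD), and F2, prothrombin, 31.5 ± 3.39 CPM after RA and 0.863 ± 0.296 CPM in untreated libraries. At day 9 RA raised 9 and lowered 2 (32.5% and 32.5% of all tested genes), led by VTN, a plasma adhesion protein, which averaged 198 ± 52.9 CPM after RA and 6.30 ± 2.03 CPM in untreated libraries. CHIR99021 and BMP4 after RA raised 4 and lowered 7 of the 18, against 32.1% and 32.3% of all tested genes. HPX, the heme carrier, was at 2.76 ± 0.252 CPM with them and 43.0 ± 10.4 CPM after RA alone. Of 24 intracellular liver enzymes and receptors, 7 passed the filter, and RA raised 2 and lowered 3 of them at day 6, and raised 1 and lowered 5 at day 9 (25.3% and 23.4% of all tested genes at day 6, 32.5% and 32.5% at day 9). The 1 that rose at day 9 was ARG1, an enzyme of the urea cycle, with 20.9 ± 7.39 CPM after RA at day 9 and 0 counts in untreated libraries of day 9. The untreated level lies under that of the filter, so the ARG1 call was partly fixed beforehand.

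Genes that assemble or take up lipoproteins were nearly all measured, 20 of 21. MTTP, the transfer protein that loads lipid onto APOB, averaged 145 ± 20.8 CPM after RA at day 6 and 1.88 ± 1.72 CPM in untreated libraries (SD), a log2 difference of 6.37 ± 0.30 (adjusted p = 6.87e-11). SAR1B, a GTPase needed to export large lipoproteins, rose by 2.61 ± 0.09 (adjusted p = 1.78e-16). LPL, the lipase that empties these particles, fell by 2.86 ± 0.39 (adjusted p = 6.90e-06). In all, RA at day 6 raised 10 and lowered 4 of the 20, against 25.3% and 23.4% of all tested genes. MTTP and APOB parted later. CHIR99021 and BMP4 after RA took MTTP to 70.6 ± 5.86 CPM, against 8.003 ± 2.00 CPM after RA alone (3.17 ± 0.24; adjusted p = 8.62e-09), whereas APOB averaged 31.96 ± 3.93 CPM with them and 59.3 ± 16.3 CPM after RA alone. Of the renin-angiotensin genes, 6 of 10 passed the filter, and RA raised 1 and lowered 2 at day 6, and raised 2 and lowered 1 at day 9, where 25.3% and 23.4% of all tested genes were called at day 6 and 32.5% and 32.5% at day 9. AGTR1, a receptor for the hormone made from AGT, averaged 5.26 ± 2.51 CPM after RA at day 9 and 0.0134 ± 0.0232 CPM in untreated libraries. The untreated level lies under that of the filter, so its call as higher was partly fixed beforehand.

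Most of the measured liver transcription factors were higher after RA. Of 19 tested (22 listed), RA raised 13 and lowered 1 at day 6, raised 13 and lowered 2 at day 9, and raised 10 and lowered 2 before CHIR99021 and BMP4, with median log2 fold changes of 1.01, 2.84 and 1.84, against 0.00, -0.02 and -0.01 over all tested genes. The shares of all tested genes called higher and lower were 25.3% and 23.4%, 32.5% and 32.5%, and 21.2% and 22.1% in the same order. CHIR99021 and BMP4 raised 4 and lowered 5 of them without RA (21.0% and 21.8% of all tested genes), and raised 3 and lowered 13 after RA (32.1% and 32.3%). HNF4A, the nuclear receptor at the centre of the liver network, averaged 81.9 ± 20.9 CPM after RA at day 9 and 1.04 ± 0.351 CPM in untreated libraries (SD). ONECUT1, which controls early liver and bile duct genes, averaged 94.5 ± 37.1 CPM after RA at day 9 and 0.164 ± 0.161 CPM in untreated libraries. At least ONECUT1 and HNF4G reached the filter's level, near 1.11 CPM, only in libraries with RA. Without RA they had at most 0.724 and 0.998 CPM in any library. Their part in the counts of factors higher after RA was therefore partly fixed beforehand.

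**Figure D5:**
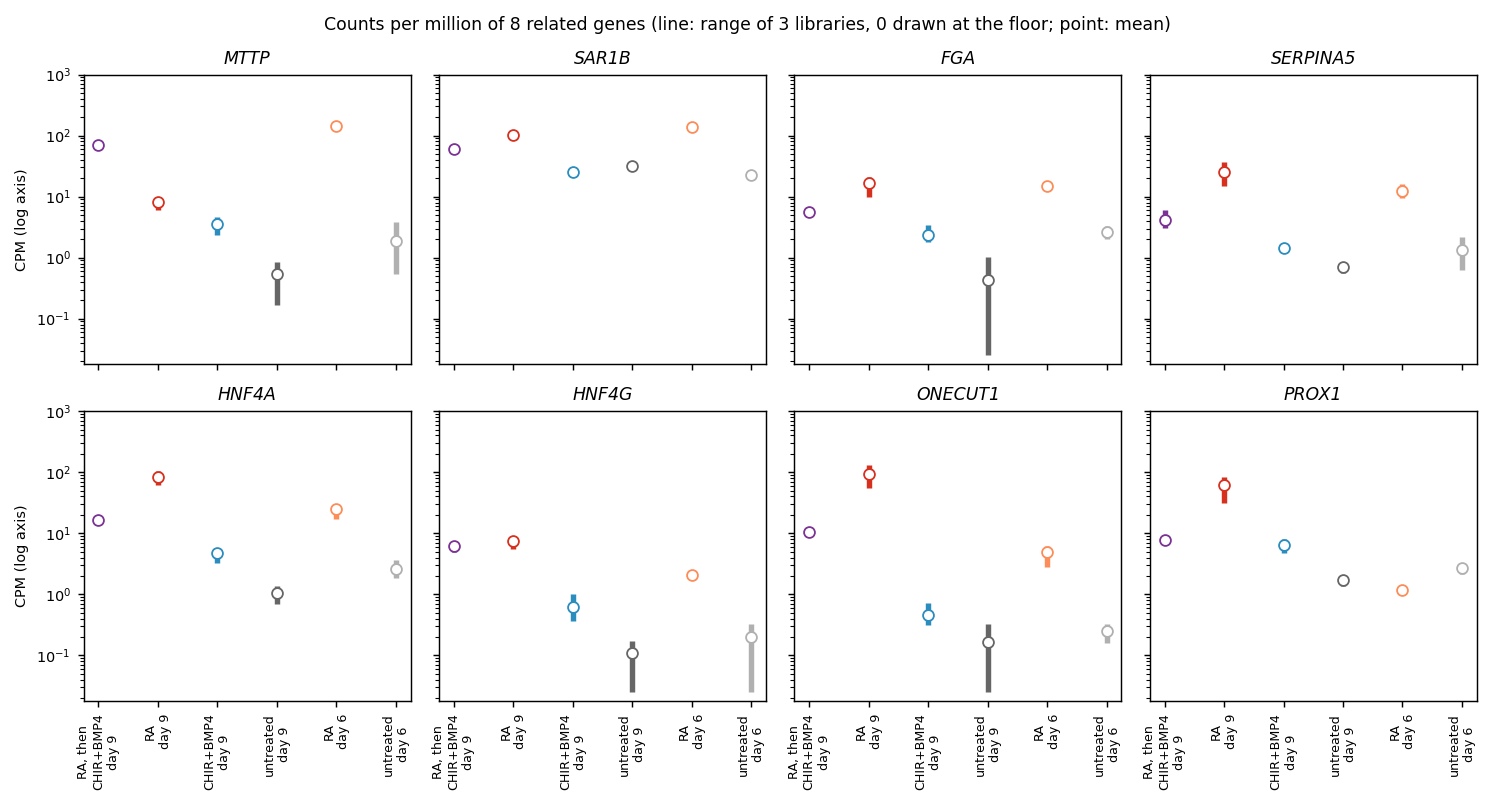
CPM of 8 related genes in the 6 groups on a log axis, with a line from the lowest to the highest of 3 libraries and a point at the mean; values of 0 are drawn at the floor. MTTP and SAR1B are highest after RA at day 6, at 145 and 139 CPM, while HNF4A, ONECUT1 and PROX1 are highest after RA at day 9, at 81.9, 94.5 and 61.2 CPM.

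The 10 genes fell into different shapes over the 6 groups. To describe them, each gene's 6 group means of log2 CPM were centred, and the root mean square distance between genes was taken over these 6 points. AFP and FGB were the closest pair (0.50), followed by APOA1 and APOB (0.66). Among 11578 other genes compared, FGA lay closest to APOB (0.45), NNAT to APOE (0.20) and RASSF6 to APOA1 (0.43). GABRA4 and ADGRG6 lay closest to SERPINA1 (0.47 and 0.59), followed by ONECUT1 (0.61), and HNF4G lay closest to FGB (0.95). DOCK11 and SERPINA5 were among the genes nearest to TTR (0.51 and 0.57). APOA2, which averaged 208 CPM after RA at day 6 and 3.10 to 6.18 CPM by group mean in 4 of the other groups, had no gene nearer than ATP10B (0.89). RPS21 and HNRNPCL1 lay nearest to AFP, at 1.08 and 1.10, further than AFP from FGB. Both also separated treated from untreated libraries, as the pseudogene split does. RPS21 averaged 88.3 to 193 CPM in treated groups, and 9.42 and 27.1 CPM in untreated libraries of day 9 and day 6. HNRNPCL1 averaged 11.1 to 13.3 CPM in treated groups, and 0.221 and 3.07 CPM in untreated libraries of day 9 and day 6. NOL4 lay closest to AGT (0.27), and TCTN1 to ALB (0.09). ALB had only 6 to 25 counts in a group and AGT 3 to 52. The prior count of 2 added before the log flattens such profiles, so small distances there say little. These distances rest on group means of the same 18 libraries and carry no test.

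By the order of the group means, 4 of the genes (APOA1, APOA2, APOB and ALB) were highest after RA at day 6, and SERPINA1 and AGT after RA at day 9. TTR overlapped between these 2 groups, and AFP and FGB were highest after RA then CHIR99021 and BMP4. For FGB that group and RA alone at day 9 overlapped, and for AGT both RA groups without CHIR99021 and BMP4 overlapped. APOE was highest at day 6 with or without RA, at 547 ± 48.4 and 543 ± 62.0 CPM (SD), and lowest in untreated libraries of day 9. All 10 genes had their lowest mean in a group without RA.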

How the data were processed

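RNA had been extracted with a Nucleospin kit and made into libraries with a TruSeq stranded mRNA kit, per the labels. STAR 2.7.9 and the GRCh38 build are named in the submitters' processing notes, while no counting tool, gene annotation or strand option is named there or in the labels. The authors deposited whole-number counts per gene, which were the values tested, and TPM values, which were used for levels between genes and as an alternative. Rows without a symbol, 36 genes with 0.00102% of counts, stayed out.

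One edgeR 4.0.16 quasi-likelihood model (R 4.3.3, robust, TMM factors, filterByExpr with a minimum count of 10) held all 18 libraries in 6 groups, and 15531 genes passed the filter. Called means a Benjamini-Hochberg adjusted p below 0.05 over these genes. The fit was tested on simulated data. A gene with 1 to 3 counts in a group is given as a ratio of summed counts, scaled by library size, with an exact 95% interval. Alternatives used RLE and upper quartile factors, no filter, DESeq2 1.42.0, limma 3.58.1 on log2(TPM + 1) and log2(TPM + 0.1), a replicate block and leaving out each library. A covariate for the pseudogene split and the fit without both mixed untreated libraries were added after the data were seen. All 10 genes are named, and other named genes are up to 3 with the largest called changes in each list and comparison (mean of at least 5 CPM), the neighbours with 1 CPM or more and the nearest genes by shape. GC, AFM, APOC3, APOA4 and APOA5 were named after their values were seen. The 10 genes and the lists were chosen with earlier results of these data known. Some genes that this rule names are not reported here.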

Additional observations from a re-analysis of the deposited data

Results flagged for a closer look

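For 8 genes the effect of RA at day 9 differed between libraries with CHIR99021 and BMP4 and libraries without, by the interaction term of edgeR's quasi-likelihood test with Benjamini-Hochberg adjustment. The interaction was -5.31 on the log2 scale for FGB (adjusted p = 0.000488), -4.45 for APOA2 (adjusted p = 7.14e-09), -3.86 for AFP (adjusted p = 0.0112) and -3.81 for TTR (adjusted p = 9.95e-05). It was -3.41 for AGT (adjusted p = 0.00176), -3.29 for APOB (adjusted p = 2.20e-05), -2.98 for APOA1 (adjusted p = 4.92e-05) and -1.05 for APOE (adjusted p = 6.15e-05). Each value includes untreated libraries of day 9, so it cannot be told apart from the pseudogene split.

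For 3 genes the effect of RA differed between day 9 and day 6 by the same test. The interaction was 2.07 for APOB (adjusted p = 0.00143), 1.18 for APOE (adjusted p = 1.98e-05) and -1.60 for APOA2 (adjusted p = 0.0248). The APOA2 call was lost without untreated day 9 replicate 3 (-1.08, adjusted p = 0.197) and without both mixed untreated libraries of day 6 (-1.57).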

How the results depend on the processing

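Of 55 called results of the 9 tested genes, 55 were called in the same direction with RLE factors, 54 with upper quartile factors, 51 without the filter and 53 by DESeq2. By limma, 48 of 51 were called on log2(TPM + 1) and 46 of 51 on log2(TPM + 0.1). Without both mixed untreated libraries of day 6 it was 50, and over all fits with 1 library left out 960 of 990. Deviations of same-numbered replicates correlated weakly at most (-0.08 to 0.23), with the highest value for replicate 1 in day 9 against day 6 without RA. The numbers were therefore not taken to pair libraries. The replicate block left all 55 called and added 2 calls of APOB, at 0.66 in RA before CHIR99021 and BMP4 and at -0.58 at day 9 against day 6 after RA. Low counts in untreated libraries and 3 libraries a group limit the precision of SERPINA1, FGB, AGT, AFP and ALB.

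A covariate for the pseudogene split, chosen after seeing the data, left 24 of 55 called. Within a group it varied widely only in untreated libraries of day 6, so its values for treated against untreated libraries are extrapolated. Genes called over the whole table were then 95 for RA at day 6 (7571 in the reported fit), 66 for RA at day 9 (10105), 18 for CHIR99021 and BMP4 without RA (6654) and 65 for the interaction of RA with CHIR99021 and BMP4 (8300). Of the 9 genes, 1 was called higher for RA at day 6, 1 for RA at day 9, 0 for CHIR99021 and BMP4 without RA and 0 after RA, and 0 were called lower in the interaction. Reversed signs were -0.71 (APOE), -0.67 (AFP) and -7.78 (AGT) for RA at day 6, and -1.36 (AFP) and -9.91 (AGT) for RA at day 9. For CHIR99021 and BMP4 without RA they were -0.055 (APOE), -1.22 (AFP), -2.63 (TTR), -11.57 (AGT) and 125.9 (SERPINA1). For the interaction with CHIR99021 and BMP4 they were 2.525 (AFP), 0.53 (TTR) and 9.68 (AGT), and for that with day -0.70 (AFP) and -0.17 (TTR). For TTR between days they were 0.159 without RA and -0.0152 after RA.

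In RA before CHIR99021 and BMP4, 0 genes were called lower without the filter, by DESeq2 and with either TPM pseudocount, and 5 were called higher on log2(TPM + 1). In CHIR99021 and BMP4 after RA, 0 were called higher without the filter, by DESeq2, on log2(TPM + 0.1) and without the mixed libraries, and 3 were called lower on log2(TPM + 0.1). On that scale 1 (SERPINA1, without FGB) was higher at day 9 against day 6 after RA. Without the mixed libraries 0 were called lower in the interaction of RA with day.

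Other reversed signs were all of results that were not called. With upper quartile factors they were -6.93e-05 (APOE, RA at day 6), -0.0751 (TTR, day 9 against day 6 after RA) and -0.0636 (AFP, interaction with day). By DESeq2 they were 0.0627 (TTR, day 9 against day 6 without RA), -0.71 (AFP, interaction with day) and -0.0405 (TTR, the same). On log2(TPM + 1) they were 0.0053 (SERPINA1, day 9 against day 6 without RA) and -0.0721 (TTR, after RA), and on log2(TPM + 0.1) -0.11 (AFP) and 0.0608 (SERPINA1) without RA and -0.0725 (TTR) after RA. With the replicate block they were 0.0465 (SERPINA1, without RA), -0.0031 (TTR, after RA) and -0.0561 (AFP, interaction with day). Without the mixed libraries TTR was at 0.0090 between days without RA. The cause was not tested for any of these.

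Leaving out 1 library at a time gave 7 to 8 genes called higher for RA at day 6, 3 to 5 higher and 0 to 1 lower for RA before CHIR99021 and BMP4, and 6 to 7 higher for CHIR99021 and BMP4 without RA. After RA it gave 0 to 1 higher and 5 to 6 lower, 3 to 4 lower at day 9 against day 6, 7 to 8 lower in the interaction with CHIR99021 and BMP4, and 2 to 3 higher and 0 to 2 lower in that with day. Signs changed for APOE at RA day 6 (-0.0645 to 0.10), AGT in RA before CHIR99021 and BMP4 (-1.19 to 0.43) and SERPINA1 in CHIR99021 and BMP4 without RA (-1.32 to 1.28). Between days without RA they changed for AFP (-2.38 to 2.18), TTR (-1.03 to 0.44), SERPINA1 (-1.69 to 3.43) and FGB (-3.11 to 2.55), and after RA for TTR (-0.20 to 0.20) and AGT (-0.17 to 0.62). In the interaction with day they changed for AFP (-1.41 to 3.15), TTR (-0.44 to 1.03) and FGB (-1.26 to 4.41).

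TPM moved the share of higher calls over the whole table. On log2(TPM + 1) it was 74.9% for RA at day 6 (51.9% in the reported fit), 73.8% for RA at day 9 (50.0%), 79.9% for CHIR99021 and BMP4 without RA (49.1%) and 62.5% for RA before CHIR99021 and BMP4 (48.9%). It was 27.8% for day 9 against day 6 without RA (51.3%), 28.9% for the interaction with CHIR99021 and BMP4 (47.8%) and 59.4% for that with day (48.8%). The median of all genes was then 0.17, 0.24, 0.20, 0.06, -0.13, -0.19 and 0.07 in the same order.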
